A study of Mus musculus with 4 samples.

Results

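A set of 608 short stretches of accessible DNA at gene ends is described here, which had a called peak in CD8+ T cells stimulated without phenelzine and in none of the other 3 peak lists of the study. They were found by merging the peaks of the 4 lists on chromosomes 1 to 19 and X wherever they shared at least 1 bp. A region was kept if its only peaks came from the stimulated untreated list and if it came within 1 kb of either end of a protein-coding gene of the mouse genome build mm10. The 608 regions were 3.99% of the 15237 merged regions and 8.96% of the 6787 merged regions at gene ends. The regions were chosen by peak presence, so their absence from the other lists and their counts are a description and were not tested.

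The libraries came from an ATAC-seq study of CD8+ T cells of Balb/c mice, which the series title calls tumour-infiltrating. There were 4 conditions with 1 library each. The cells were stimulated and untreated, stimulated and given phenelzine, unstimulated and given phenelzine, or unstimulated and untreated. Stimulated cells received PMA, a phorbol ester, together with ionomycin over 2 h. PMA activates protein kinase C and ionomycin raises calcium, so together they imitate the signals below the T cell receptor. Phenelzine is an irreversible inhibitor of monoamine oxidases that also acts on the histone demethylase LSD1. For the tumour, the sorting, the animals and the phenelzine dose and time, nothing is given in the sources used here. With 1 library per condition no difference between conditions could be tested, and the intervals given below are exact (Clopper-Pearson) 95% intervals that cover counting error only.

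In ATAC-seq the Tn5 transposase cuts DNA that is not wrapped in nucleosomes. Gene starts are commonly nucleosome-depleted, above all those in CpG islands, where factors of the SP/KLF, ETS, NRF1 and NF-Y families bind. T cell activation adds sites bound by AP-1, NFAT and NF-kB, many of them far from gene starts. A peak in a list means that cuts piled up above the local background by the caller's threshold, so a region without a peak may still be accessible below that threshold.

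The CD8+ label was set against genes that define T cells. A gene-end peak was present at 6 of 25 T cell receptor and CD8 identity genes in the stimulated untreated list. The count was 2 in the stimulated phenelzine, 3 in the unstimulated phenelzine and 4 in the unstimulated untreated list. Taking all lists together it was also 6 of 25, a lower share than the 34.9% of all protein-coding genes. These counts thus do not set the identity genes apart from other genes. Cd5, among the 6, had its only gene-end region from the set described here, so it is not independent of the choice of regions. Cd8a, Cd8b1 and Cd3e, the defining genes, had none in any list, while Cd3d had one in the stimulated untreated and the unstimulated phenelzine lists. Marker genes of B cells, NK cells, epithelial cells and stroma with endothelium had no gene-end peak in any list. Of 8 myeloid markers only Cd14 had one, in the stimulated untreated list alone (−log10 q 2.88), and of 4 CD4 and regulatory T cell genes only Zbtb7b had one, in all 4 lists.

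The sequences under 10 of the 608 peaks are examples of the DNA involved. Rfc3, Arpc3 and Akr1a1 are the regions of highest −log10 q with at least 40 bases of the peak inside a promoter window, Rpl13 as the leading ribosomal protein gene and Diaph2 as the region farthest from any peak of another list. Fos, Rela, Chuk, Ccl3 and Cd5 were chosen as T cell genes with a region at the start. Each line is the part of the peak inside the RefSeq promoter window of build GRCm38.p6 (mm10), which runs from 250 bases before a gene's annotated start to 50 after it. All are written 5′ to 3′ on the gene's strand. Capitals mark the letters of the 12 motifs searched, which are spelled out with their shares further on, and a match is a description and not a proven binding site. The Rfc3 stretch is chr5:151651181-151651304 on the minus strand, Arpc3 is chr5:122391826-122391927 on the plus strand, Akr1a1 is chr4:116651625-116651724 on the minus strand, and Rpl13 is chr8:123102270-123102399 on the plus strand. Diaph2 is chrX:129749593-129749714, Fos is chr12:85473640-85473859 and Rela is chr19:5637365-5637590, all on the plus strand. Chuk is chr19:44107460-44107539, Ccl3 is chr11:83649407-83649530 and Cd5 is chr19:10739003-10739111, all on the minus strand.
Rfc3: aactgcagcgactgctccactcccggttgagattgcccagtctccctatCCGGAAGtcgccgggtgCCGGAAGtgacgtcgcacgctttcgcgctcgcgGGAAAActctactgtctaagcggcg
Arpc3: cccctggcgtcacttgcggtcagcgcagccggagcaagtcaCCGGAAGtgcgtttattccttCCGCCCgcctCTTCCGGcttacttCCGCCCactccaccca
Akr1a1: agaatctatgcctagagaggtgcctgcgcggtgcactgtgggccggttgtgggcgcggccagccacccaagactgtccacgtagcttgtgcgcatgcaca
Rpl13: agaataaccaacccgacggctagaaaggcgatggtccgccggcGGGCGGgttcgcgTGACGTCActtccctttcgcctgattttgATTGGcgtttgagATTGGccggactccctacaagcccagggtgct
Diaph2: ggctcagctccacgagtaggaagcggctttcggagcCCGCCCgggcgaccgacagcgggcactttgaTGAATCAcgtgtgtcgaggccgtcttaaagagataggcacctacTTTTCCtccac
Fos: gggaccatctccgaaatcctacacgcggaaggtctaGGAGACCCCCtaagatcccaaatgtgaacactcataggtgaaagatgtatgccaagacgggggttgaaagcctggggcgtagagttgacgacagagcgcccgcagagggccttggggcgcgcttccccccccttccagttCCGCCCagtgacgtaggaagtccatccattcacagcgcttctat
Rela: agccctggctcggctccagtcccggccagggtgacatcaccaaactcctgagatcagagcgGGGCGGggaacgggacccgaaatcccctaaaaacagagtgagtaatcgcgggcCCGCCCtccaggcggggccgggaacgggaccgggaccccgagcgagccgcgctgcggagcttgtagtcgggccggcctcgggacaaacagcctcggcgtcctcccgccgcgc
Chuk: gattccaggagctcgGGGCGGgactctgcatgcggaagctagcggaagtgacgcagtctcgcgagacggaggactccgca
Ccl3: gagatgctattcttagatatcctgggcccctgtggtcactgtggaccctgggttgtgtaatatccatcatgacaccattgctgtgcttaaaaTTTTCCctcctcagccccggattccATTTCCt
Cd5: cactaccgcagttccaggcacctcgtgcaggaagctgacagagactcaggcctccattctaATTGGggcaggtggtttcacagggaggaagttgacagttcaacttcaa
The Rfc3 and Arpc3 stretches each carry the ETS word at 2 places, the Akr1a1 stretch holds none of the 12 motifs, and the Rpl13 stretch carries the CRE word and 2 NF-Y words. The Fos stretch holds an NF-kB match and an SP/KLF word, whereas the Ccl3 stretch holds only NFAT words of those searched. The GC content was 70.4% in the Rela stretch, 62.1% in Rfc3, 57.7% in Fos, 53.2% in Cd5 and 48.4% in Ccl3. The 10 stretches are not a measure of how common a motif was. Of the 349 regions with such a stretch, 181 (51.9%) held the SP/KLF word under the peak, 92 (26.4%) the NFAT word, 84 (24.1%) the NF-Y word and 52 (14.9%, 11.3 to 19.1) the ETS word. The NF-kB consensus was under 17 peaks, the CRE word under 11 and the AP-1 word under 10. No share for other peaks or for sequence of like length stands beside these counts, so they do not set the 608 apart.

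The stimulated untreated list alone held 2689 regions, and 22.6% (21.0 to 24.2) of them, the 608, were at gene ends. The corresponding numbers were 412 of 2019 (20.4%, 18.7 to 22.2) for the stimulated phenelzine list alone, 303 of 1268 (23.9%, 21.6 to 26.3) for the unstimulated phenelzine list alone and 161 of 669 (24.1%, 20.9 to 27.5) for the unstimulated untreated list alone. The gene-end share of single-list regions was thus within overlapping intervals for the stimulated untreated list and each of the other lists. As a share of each list's own peaks, the 608 were 5.84% of 10405, against 4.42% of 9322 in the stimulated phenelzine, 3.82% of 7929 in the unstimulated phenelzine and 2.47% of 6519 in the unstimulated untreated list. The number of single-list gene-end regions was in the same order as the length of the lists. The background pileup implied by each list, used here as a measure of depth, was 0.493, 0.489, 0.471 and 0.392 in that order, and depth, list length and condition cannot be told apart with 1 library each.

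When each list was shortened to its 6519 peaks of highest −log10 q, the stimulated untreated list alone held 373 gene-end regions. The stimulated phenelzine list then held 333, the unstimulated phenelzine list 319 and the unstimulated untreated list 326. Of the 373 regions, 270 were among the original 608. Equal length meant unequal thresholds. The lowest −log10 q kept was 2.41 in the stimulated untreated and 2.02 in the stimulated phenelzine list. It was 1.67 in the unstimulated phenelzine and 1.005 in the unstimulated untreated list. The gene-end shares that follow were thus not taken at a like threshold, and their differences were not tested. At equal length the stimulated untreated list had 35.6% (32.7 to 38.5) of its single-list regions at gene ends, against 30.3% (27.6 to 33.1) for stimulated phenelzine, 30.8% (28.0 to 33.7) for unstimulated phenelzine and 28.5% (25.9 to 31.2) for unstimulated untreated.

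**Figure D1:**
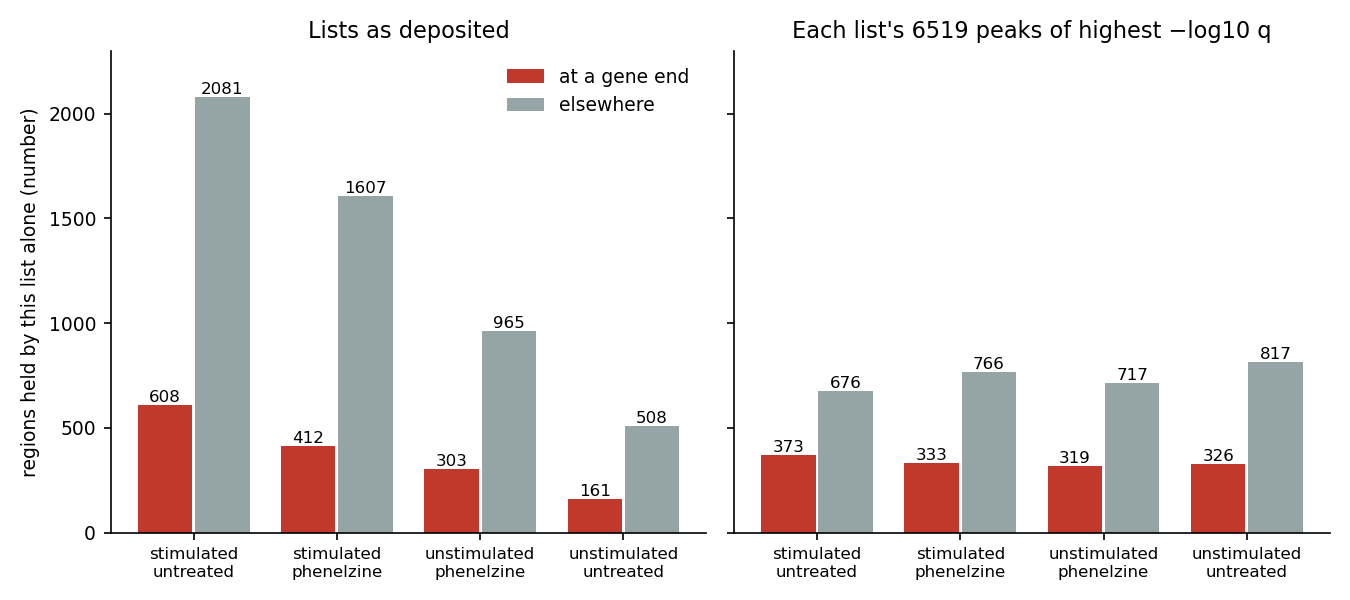
Number of merged regions held by 1 peak list alone, at gene ends (red) and elsewhere (grey), for the lists as deposited (left) and cut to 6519 peaks each (right). The gene-end count of the stimulated untreated list is 608 on the left, above 412, 303 and 161, and 373 on the right, close to 333, 319 and 326.

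The 608 peaks were narrow and modest in fold enrichment. The values are the authors' own peak scores. Their −log10 q ran from 1.02 to 7.95 with a median of 2.28 (quartiles 1.71 and 3.16), and 171 (28.1%) reached 3. Fold enrichment over the local background had a median of 4.47 (3.58 to 7.55), and width a median of 101 bp (70 to 630). The fold and the implied background give a least pileup of overlapping fragments per peak, a lower bound with a median of 5.68 (4.35 to 10.3). This bound was below 6 for 378 of the 608 peaks. It was not established whether the deposited fold is a peak's highest value or a mean over its width. The list's strongest 1000 peaks included 3 of the 608, and the strongest of all, at Rida and Pop1, ranked 667. Each of the 608 regions rested on 1 peak.

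Strength was higher the more lists held a gene-end region. The median −log10 q of stimulated untreated peaks was 2.28, 2.68, 3.16 and 5.02 for regions held by 1, 2, 3 and 4 lists. Median fold enrichment was 4.47, 4.73, 5.02 and 5.99, and median width was 101, 116, 140 and 216 bp in the same order. The share of the list's regions that lay at gene ends was 22.6%, 39.6%, 56.5% and 77.1% in that order. The 608 regions had higher medians than the 2081 regions of the same list alone that lay away from gene ends, whose median −log10 q was 1.85 and median fold 4.20.

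**Figure D2:**
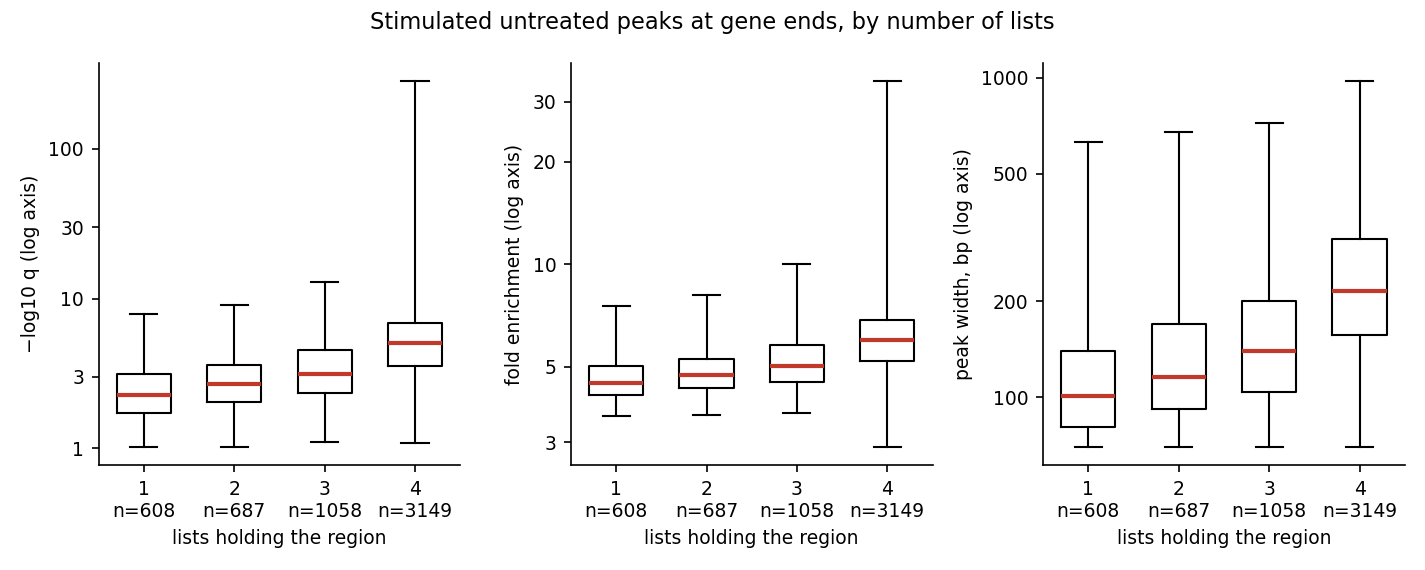
The −log10 q, fold enrichment and width (log axes) of the stimulated untreated peak in gene-end regions held by 1 to 4 lists. Boxes show quartiles with the median in red and whiskers the full range, and the 608 regions of the first box have the lowest medians, 2.28, 4.47 and 101 bp.

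Most of the 608 regions lay more than 20 kb from any peak of the other 3 lists. The distance to the nearest peak of another list had a median of 24494.5 bp. It was at most 1 kb for 87 regions (14.3%), at most 5 kb for 133 and at most 20 kb for 270. Within 1 kb, the neighbour was in the stimulated phenelzine list for 72 regions, in the unstimulated phenelzine list for 56 and in the unstimulated untreated list for 43. The corresponding share within 1 kb was 16.7% for the regions of the stimulated phenelzine list alone, 16.5% for unstimulated phenelzine and 18.01% for unstimulated untreated. Their median distances were 18081.5, 22236 and 22226 bp in that order, so long distances were not particular to the 608.

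A small number were near misses of the 1 bp rule. In 11 regions the next peak was at most 100 bp away. At Tcf7l2, which encodes a transcription factor of Wnt signalling, the region at chr19:55741763-55741874 (−log10 q 2.93) adjoined a stimulated phenelzine peak with no base between them. The same held at Eif4a2, an RNA helicase gene of translation initiation, with −log10 q 2.35 at chr16:23107349-23107448. At Zfp36l2, which encodes an RNA-binding protein that promotes mRNA decay, the neighbouring stimulated phenelzine peak was 9 bp away, and both unstimulated lists had a peak within 428 bp. Tcf7l2 was named after its values were seen.

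At the edge of the window, regions just inside were at Sars (996 bp from the gene end) and Jun (994 bp), with −log10 q of 2.30 and 1.59. The first outside were at Id1 (1002 bp), Garnl3 (1009 bp) and Ube2d3 (1042 bp), with 1.23, 2.78 and 1.39.

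Gene starts made up nearly all of the gene ends concerned. The gene's strand was known for 504 of the 608 regions, and 473 of these (93.8%, 91.4 to 95.8) lay within 1 kb of a start. The remaining 31 (6.15%) were at the other end only, against 10.1% of regions of the stimulated phenelzine list alone and 0.886% of regions held by all 4 lists. The peak itself covered a gene end in 285 regions (46.9%, 42.8 to 50.9), against 41.7% for the stimulated phenelzine list alone and 73.8% for regions held by all 4 lists, whose peaks were wider. By the nearest end, a further 154 lay inside the gene and 169 outside it. Starts of genes on both strands were present at 33 of the 504 regions (6.55%, 4.55 to 9.07), against 8.84% for the stimulated phenelzine list alone and 17.5% (16.1 to 19.01) for regions held by all 4 lists.

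Peak centres clustered just upstream of the start. For 444 regions the centre was within 1 kb of an annotated start of a protein-coding gene, and the median position was −38 bp, with 322 (72.5%) upstream. Within 100 bp of the start lay 299 centres (67.3%, 62.8 to 71.7). In regions held by all 4 lists the median was −65 bp, with 61.4% within 100 bp and 82.3% upstream.

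**Figure D3:**
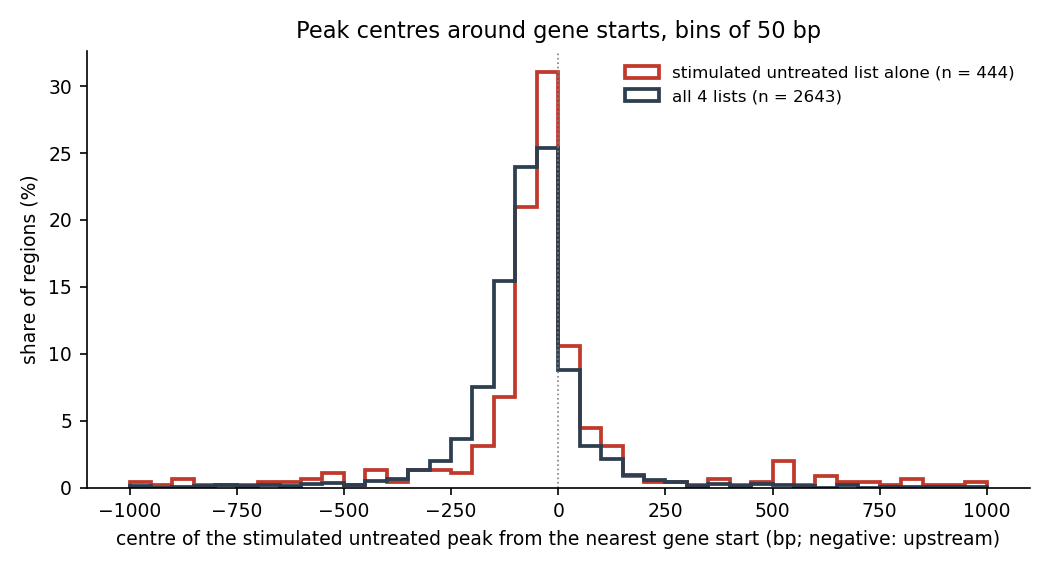
Distribution of the centre of the stimulated untreated peak around the nearest annotated start of a protein-coding gene, in bins of 50 bp, for the 444 regions of that list alone (red) and for 2643 regions held by all 4 lists (dark). Both peak just upstream of the start, with medians of −38 and −65 bp.

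The 608 regions fell at 688 of 21631 protein-coding genes (3.18%), and at 9.12% of the 7545 genes with a gene-end region in any list. For 549 of the 688 genes (79.8%, 76.6 to 82.7) no other gene-end region was held by any list, so the gene end was seen in the stimulated untreated list alone. This share was 77.7% for genes with a region of the stimulated phenelzine list alone, 77.4% for unstimulated phenelzine and 78.3% for unstimulated untreated, all within the interval of the stimulated untreated list. The other 139 genes had a further gene-end region, which all 4 lists held at 56 of them. The wider locus was taken as the gene with 20 kb on either side. There 366 of the 688 genes had another region in the stimulated untreated list and 368 in stimulated phenelzine. The number was 325 in unstimulated phenelzine and 292 in unstimulated untreated. All 608 regions were left out of this count, while single-list gene-end regions of the other lists were kept. The stimulated untreated number is thus lowered by construction. Between the stimulated lists, 22 genes had both a region of the stimulated untreated list alone and one of the stimulated phenelzine list alone, which is 3.20% of 688 and 4.72% of 466. Beside the 3.20% (2.01 to 4.80), the stimulated phenelzine list alone had a region at 2.15% of all genes. Beside the 4.72% (2.98 to 7.06), the stimulated untreated list alone had one at 3.18% of all genes. Both intervals include these all-gene shares. The 9.12% of genes with a gene-end region in any list is not a like reference for the 4.72%. All 466 genes had another gene-end region by definition, whereas 549 of the 688 had none.

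The 20 regions with the highest −log10 q ran from 5.31 to 7.95 by that measure. In 18 of the 20 the peak covered a gene end, and the nearest peak of another list was between 11229 and 282194 bp away. The leading region, chr15:34495246-34495378, lay at the ends of Rida, an imine deaminase gene, and Pop1, which encodes a subunit of RNase P, with fold 7.55 and −log10 q 7.95. Rfc3, a subunit of the clamp loader of DNA replication, followed with fold 7.42 and −log10 q 7.49, and Arpc3, a subunit of the actin-nucleating Arp2/3 complex, with 7.39 and 7.34. Akr1a1, which encodes an aldehyde reductase, had −log10 q 6.91, and Mrpl19, a mitochondrial ribosomal protein gene, 6.57. Of these 5, Arpc3 had the closest peak of another list, 19260 bp away.

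Chmp1b encodes an ESCRT-III component of membrane scission (−log10 q 6.49), Cluh a protein that binds mRNAs for mitochondrial proteins (6.33), Pex19 a carrier of peroxisomal membrane proteins (6.28) and Gosr1 a Golgi SNARE (5.31). Ncbp3 (6.15) encodes a cap-binding protein. One region each lay at the ends of Urb2, a ribosome biogenesis gene, with Taf5l, which encodes a SAGA complex subunit (5.57), and of Tmem199 with Poldip2 (5.35). Prkcz (5.37) encodes the atypical protein kinase C zeta, and Otub1 (5.37) a deubiquitinase. The remaining 6 were Gpatch4, Srrm3, Fez2, Mettl2, BC055324 with Mettl18, and Tor1b, with −log10 q from 5.46 to 6.51.

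Genes of T cell function, the drug's targets and signalling had a region from the set at 13 of 234 members (5.56%, 2.99 to 9.31), beside the 3.18% over all genes. The interval includes the background. The same genes had a region of the stimulated phenelzine list alone at 6 of 234 (2.56%, 0.947 to 5.50), beside 2.15% of all genes. For the unstimulated phenelzine list alone it was 3 (1.28%, 0.265 to 3.70), beside 1.59%. For the unstimulated untreated list alone it was 6 (2.56%, 0.947 to 5.50), beside 0.851%, so there the interval lay above the list's own background. The 13 genes shared 12 regions, whose −log10 q ran from 1.47 to 4.12. None of the 12 was among the leading 20.

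Immediate early genes, which are transcribed within minutes of a signal, accounted for 4 of these, out of 31 (12.9%, 3.63 to 29.8). Among the 26 with a gene-end region in any list, the 4 make 15.4% (4.36 to 34.9), an interval that includes the 9.12% of all genes with such a region. A region of the stimulated phenelzine list alone was found at 1 of the 31 (3.23%, beside 2.15% of all genes), of the unstimulated phenelzine list alone at 0 (beside 1.59%) and of the unstimulated untreated list alone at 1 (3.23%, beside 0.851%). Fos, the gene of an AP-1 subunit, had a peak of 321 bp with fold 5.18 and −log10 q 3.50, centred at −191 bp from its start. Its nearest peaks elsewhere were 17995 bp away in the stimulated phenelzine, 4644 bp in the unstimulated phenelzine and 12162 bp in the unstimulated untreated list, and no list had another gene-end region there. Ier2, a short immediate early gene, had the strongest region of the 12 (chr8:84661668-84661782, fold 5.32, −log10 q 4.12). It lay 1080 bp from a stimulated phenelzine, 2230 bp from an unstimulated phenelzine and 1033 bp from an unstimulated untreated peak, and another gene-end region was present in the stimulated untreated, stimulated phenelzine and unstimulated untreated lists.

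Myc, a growth regulator, had a weak region at chr15:61985494-61985566, 153 bp from a gene end, with fold 4.16 and −log10 q 2.13. Peaks of the stimulated phenelzine and unstimulated untreated lists lay 1820 and 1879 bp away. The region of Jun, the gene of another AP-1 subunit, had −log10 q 1.59 and had its centre at −1077 bp from the start. The gene also had a gene-end region in each of the 4 lists, the nearest peak being 400 bp away in the unstimulated phenelzine list. For Ier2 and Jun the region was thus an extra one beside existing peaks, and for Fos and Myc it was the sole gene-end region.

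Cytokine and chemokine genes had 1 region at 2 of 17 genes. Its centre was at −90 bp from the start of Ccl3 and the region came within 1 kb of an end of the neighbouring Ccl4, both genes for chemokines that activated CD8+ T cells release. Its fold was 5.35 and its −log10 q 3.72. The nearest peaks were 9012 bp away in the stimulated phenelzine, 45679 bp in the unstimulated phenelzine and 8923 bp in the unstimulated untreated list.

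Of 34 NF-kB and NFAT pathway genes, 3 had a region (8.82%, 1.86 to 23.7). Chuk, which encodes the kinase IKK alpha, had a peak of 80 bp across its start with fold 5.32 and −log10 q 3.65. The nearest peaks were 28298 bp away in the stimulated phenelzine list and 38877 bp away in both unstimulated lists. Rela encodes the NF-kB subunit p65, and its region was the fourth widest of the 608, with 420 bp (fold 4.82, −log10 q 2.84). Rela had a second gene-end region in the unstimulated phenelzine and unstimulated untreated lists, 11023 and 11053 bp away. Nfatc2, a calcium-responsive transcription factor gene, had −log10 q 1.78, with a peak centred at −244 bp from its start.

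Surface receptor genes added single genes. Cd5, an inhibitory co-receptor gene of T cells, had fold 4.36 and −log10 q 2.07, centred at −83 bp from the start, and its nearest peak in any other list was 50184 bp away. Cd44, an adhesion receptor gene that rises on activated T cells, had −log10 q 2.87, and Lag3, an inhibitory receptor gene, 1.47. No region fell at any of 14 cytotoxic, 16 naive and memory, 17 effector transcription factor or 19 LSD1 complex and monoamine oxidase genes, of which 2, 5, 7 and 10 had a gene-end region in any list. A count of 0 of 19 allows a share up to 17.6% by the exact interval.

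Process genes had a region of the set at 16 of 408 (3.92%, 2.26 to 6.29), near the 3.18% of all genes. Of the 408, 348 had a gene-end region in any list, and 16 of 348 is below the 9.12% of all such genes. Histone-modifying enzymes had 4 of 60. Ep300, a histone acetyltransferase gene, had −log10 q 3.95 at chr15:81585121-81585361, centred at −973 bp from its start, and Sirt7, a deacylase gene, 3.79 in a region shared with Mafg. Kat2a had 1.48 and Nsd3 1.503, with an other-list peak 416 bp away at Nsd3. Heat shock and chaperone genes had 3 of 50 (Cct7, Dnaja2 and Dnajb2). There were 2 of 51 transcription elongation and Mediator genes, Med13 and Cdk9, 2 of 53 translation factors, Eif6 and Eif4a2, and 2 of 68 cell cycle and replication genes, Rfc3 and E2f2. The aminoacyl-tRNA synthetases had Sars of 37, the splicing factors Rbm39 of 48 and the nuclear pore genes 0 of 27.

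Symbol families lay on both sides of the background. Mitochondrial ribosomal protein genes had 5 of 78 (6.41%, 2.11 to 14.3), led by Mrpl19, Mrps30 (−log10 q 4.49) and Mrpl38 (4.34). Cytosolic ribosomal protein genes had 3 of 85, at Rpl13 (−log10 q 4.997), Rplp2 (2.29) and Rps9 (2.17). Oxidative phosphorylation subunits, the other large class of mitochondrial genes, had 0 of 87, for which the exact interval reaches 4.15%. Of the 87, 65 had a gene-end region in some list, and for 0 of 65 the interval reaches 5.52%, below the 9.12% of all such genes. The stimulated phenelzine list alone had a region at 4 of the 87, the unstimulated phenelzine list alone at 1 and the unstimulated untreated list alone at 0. Rab GTPase genes of vesicle traffic had 5 of 59 (8.47%, 2.81 to 18.7), Rab9, Rab11a, Rab20, Rab32 and Rab43, each with no gene-end region in another list. Solute carriers had 11 of 346, TMEM genes 8 of 238, replication-dependent histones 3 of 63, proteasome subunits 2 of 51, ubiquitin-conjugating enzymes 1 of 37 and H2 locus genes 0 of 38. Slc2a1, which encodes the glucose transporter GLUT1, had a region across its start with −log10 q 2.55, 2655 bp from the nearest peak of another list.

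Genes whose symbols start with Zfp and a number, most of which encode C2H2 zinc finger proteins and many of them KRAB repressors, had 25 of 397 (6.30%, 4.12 to 9.16). The share was 3.18% over all genes. The same genes had a region of the stimulated phenelzine list alone at 10 (2.52%, 1.21 to 4.58), of the unstimulated phenelzine list alone at 9 (2.27%, 1.04 to 4.26) and of the unstimulated untreated list alone at 6 (1.51%, 0.557 to 3.26). Over all genes those lists had 2.15%, 1.59% and 0.851% in that order, so each list's Zfp share was above its own background in value, and for these 3 lists the interval includes it. Among the 173 Zfp genes with a gene-end region in any list, the 25 make 14.5% (9.58 to 20.6), beside the 9.12% of all genes with such a region. The 25 genes shared 23 regions, 14 of the 25 genes were on chromosome 7, which carries 93 of the 397, and 13 of the 23 peaks covered a gene end. Their −log10 q had a median of 2.56 (1.53 to 3.98), led by the regions shared by Zfp668 with Zfp646 and by Zfp784 with Zfp580. For 22 of the 25 no other gene-end region was present in any list. Zfp36l2 is in the family by its symbol only. The intervals treat the 397 genes as separate, although some share a region. No test of the difference between lists was made.

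Chromosome X carried 26 of the 608 regions among 133 gene-end regions, or 19.5% (13.2 to 27.3), against 8.75% (8.08 to 9.45) of autosomal gene-end regions and 4.94% to 12.1% on single autosomes. Per 100 protein-coding genes X carried 2.69 of the regions, within the 1.57 to 3.97 of single autosomes, so by genes it did not stand out. On X, regions of the stimulated phenelzine list alone made up 8.27%, of the unstimulated phenelzine list alone 8.27% and of the unstimulated untreated list alone 3.76%, against 6.03%, 4.39% and 2.34% on autosomes. Regions held by all 4 lists were 18.05% of gene-end regions on X and 47.0% on autosomes, and 15.01% of X genes had a gene-end region in any list, against 35.8% of autosomal genes. The 26 X regions had a median −log10 q of 2.36 and 13 of them covered a gene end. X was singled out after its values were seen. It also held the region farthest from any peak of another list, at Diaph2, a formin gene (4309427 bp).

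There were 9 genes with 2 of the regions, namely Cr1l, Rpn1, Zfp668, Zfp646, Trex1, Atrip, Spag5, Prss22 and G6pdx. At G6pdx, the X-linked gene of glucose-6-phosphate dehydrogenase, they lay at chrX:74428953-74429032 (−log10 q 3.61) and chrX:74429618-74429717 (2.201), and the nearest peak of another list was 115941 bp from the first and 116606 bp from the second. Trex1, a DNA exonuclease gene, and Atrip, a partner of the ATR kinase, shared both of theirs. The widest of the 608 were at Gas2l3 (630 bp, −log10 q 2.09), Egln3 (474 bp, 1.68), which encodes an oxygen-sensing prolyl hydroxylase, Mzf1 (423 bp, 3.67), Rela (420 bp) and Pidd1 with Rplp2 (403 bp, 2.29), so width and strength did not go together among them.

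Most promoter windows that overlapped a region were rich in CpG, though fewer than among windows of regions held by all 4 lists. Windows of 379 genes overlapped one of the 608 regions, 414 windows in all since some genes have several starts. Chromosome 18 had no promoter windows, so 600 of the 608 regions could be compared with them. Their median GC content was 61.0%, and 73.4% (68.9 to 77.6) had an observed to expected CpG ratio of at least 0.6. The share was 82.4% (77.3 to 86.8) for windows of the stimulated phenelzine list alone, 92.4% (91.5 to 93.3) for those of regions held by all 4 lists, 29.6% for windows without any region and 48.1% for all windows. The median CpG ratio was 0.773 for the 414 windows, 0.781 for the stimulated phenelzine list alone, 0.860 for the regions held by all 4 lists and 0.343 for windows without any region.

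The 12 motifs were searched on both strands of the whole window, 10 of them as exact words and the NF-kB and SRF consensus sequences with their usual choice of letters. No word contains another, though matches may share bases. The SP/KLF word, GGGCGG, was in 67.9% of the 414 windows, in 74.9% of windows of regions held by all 4 lists and in 46.7% of all promoter windows. The ETS word, CCGGAAG, was in 20.8% (17.0 to 25.004), 27.1% (25.5 to 28.6) and 11.7% in the same order. The NRF1 word, CGCATGCG, was in 1.93% (0.838 to 3.77), 9.24% (8.26 to 10.3) and 2.53%, and the NF-Y word, CCAAT, in 37.9% (33.2 to 42.8), 53.1% (51.3 to 54.8) and 38.5%.

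For these 4 promoter words the 414 windows were thus lower than those of shared regions, with separate intervals, and ETS and SP/KLF were above the share of all windows. The intervals treat windows as separate, although the 414 came from 379 genes and the 3237 of shared regions from 2941. The gaps for ETS (25.004 against 25.5) and SP/KLF (72.4 against 73.3) were narrow, so their separation is uncertain. The word for the TATA box, TATAAA, ran the other way, at 9.18% (6.58 to 12.4) in the 414 windows, 4.73% (4.02 to 5.52) in windows of shared regions and 12.7% of all windows. The factors known from T cell activation gave smaller contrasts. The AP-1 word, TGANTCA, was in 6.52% (4.34 to 9.35) of the 414, 3.71% (3.08 to 4.42) of shared and 7.04% of all windows. The NF-kB consensus was in 7.97% (5.55 to 11.0), 5.96% and 6.34%, and the NFAT word, GGAAAN, in 60.1%, 59.3% and 60.1%, so the intervals of the 414 windows for these 3 include the share of all windows. The CRE word, TGACGTCA, was in 3.86% (2.22 to 6.20), 4.88% and 2.26%. The YY1 word, AAGATGG, was in 9.18% (6.58 to 12.4), 9.14% and 6.28%, so its interval in the 414 windows also lay above the share of all windows. The RUNX word, TGTGGTT, was in 4.35%, 3.15% and 4.74%, and the SRF consensus in 0.966%, 1.30% and 1.54%. Windows of the stimulated phenelzine list alone had intervals that overlapped those of the 414 for each of the 12 motifs.

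**Figure D4:**
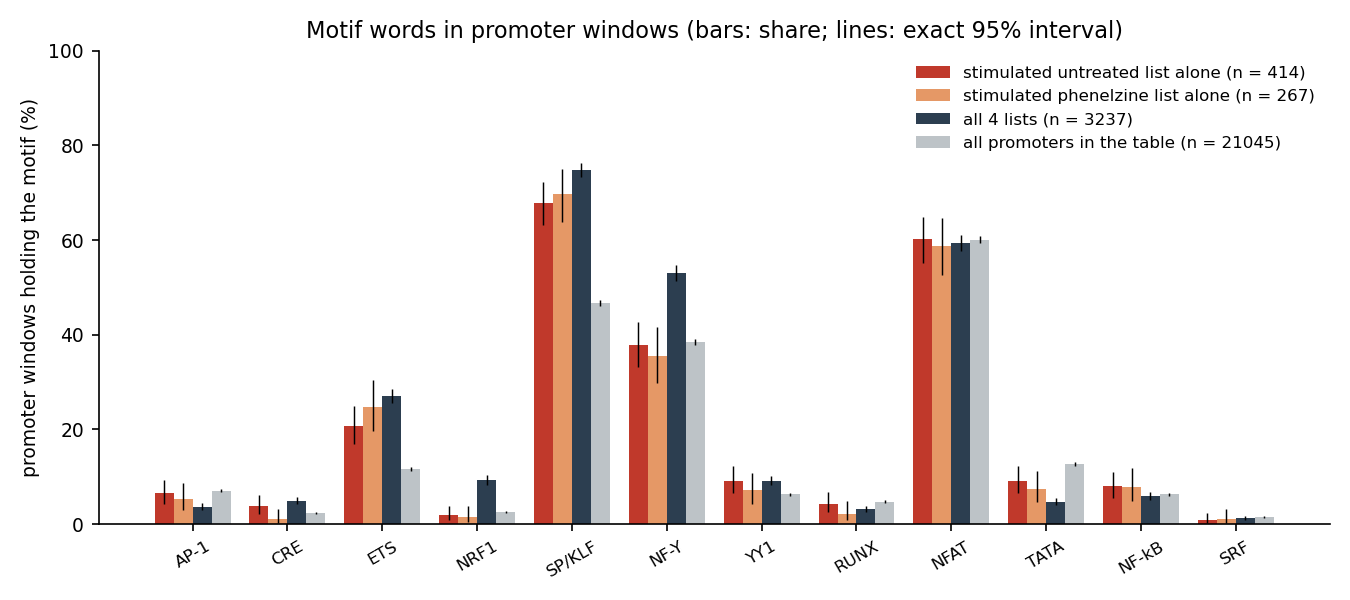
Share of promoter windows holding each of the 12 motifs, for windows overlapping regions of the stimulated untreated list alone (red), of the stimulated phenelzine list alone (orange), of all 4 lists (dark) and for all windows (grey), with exact 95% intervals. The red bars lie below the dark ones for ETS, NRF1, SP/KLF and NF-Y and above them for TATA, with separate intervals. The intervals treat several windows of the same gene as separate. For the remaining motifs the red and dark intervals overlap.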

How the data were processed

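ATAC-seq libraries, 1 per condition, were deposited as 1 list of broad peaks each. The submitters' processing notes name the build mm10, the trimmer Trimmomatic 0.33, the aligner Bowtie2 2.2.5, the peak caller MACS2, and also Picard and HOMER. For parameters and depth, nothing is given in the sources used here. The peak names carry a tag that may denote a limit on fragment length. The deposited score is 10 times −log10 q, rounded down, for 99.981% of stimulated untreated peaks and 100% of those of the other lists. The deposited fold enrichment is a ratio of pileup over local background, and both deposited significance columns, of p-values and q-values, are −log10 values. These belong to a peak's own list and were used within it, apart from the thresholds and implied backgrounds given for each list.

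Peaks on Y were set aside. Genes, their strand and promoter windows came from RefSeq (GRCm38.p6). The strand was available for 17274 of 21631 protein-coding genes. Chromosome 18 had no promoter windows and thus no strand. The implied background was solved from each list's most frequent pair of fold and −log10 p, with fold equal to (pileup + 1) divided by (background + 1) and p from the Poisson distribution. It gave a pileup of 5 in each list. The least pileup of a peak applies the list's background to its fold and is a lower bound if local background was higher. All 26 gene lists by hand and 11 symbol families were matched to the gene table. Merging returned 500 of 500 planted regions on simulated data. Genes named are the 20 regions of highest −log10 q, those at T cell, drug target and signalling genes, up to 4 per other list, the 5 widest and 5 farthest, 3 on each side of the window edge, and genes with 2 regions. Some genes that this rule selects are not reported here. The regions, lists and rules were chosen with earlier results of these data known. No test between conditions was made. Intervals came from scipy 1.17.1 with Python 3.11.15. Alternatives were a stricter threshold, lists of equal length, other merging rules and windows, and each other list left out.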

Additional observations from a re-analysis of the deposited data

How the results depend on the processing

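No paired analysis was possible because each condition had 1 library and no test was made. The main values were 608 regions, 22.6% of the list's single-list regions at gene ends, 688 genes, 549 of them without another gene-end region, a median −log10 q of 2.28 and 14.3% of regions within 1 kb of another list's peak. With −log10 q of at least 3 in every list there were 680 regions, of which 171 were among the 608, the gene-end share was 51.7%, the median −log10 q 3.89 and the share near another list's peak 4.71%. With lists of equal length the values were 373 regions, 35.6%, 449 genes, 379 of them without another region, 3.27 and 10.2%. Leaving the stimulated phenelzine list out of the merge gave 958 regions, 26.6%, 1084 genes, 910 without another region, 2.41 and 10.2%. Leaving out the unstimulated phenelzine list gave 835 regions, a gene-end share of 25.6% and a median −log10 q of 2.41, and leaving out the unstimulated untreated list 732 regions and 24.5%. A window of 500 bp gave 526 regions, 19.6% and 9.70% near another list's peak, and one of 2 kb 734 regions and 27.3%. Requiring an overlap of 50% of the shorter peak gave 680 regions, 23.4% of them near another list's peak by the same distance, and merging over gaps up to 100 bp gave 597. Removing a list adds regions by construction, and raising the threshold drops weak regions while adding stronger ones whose partners in other lists fell below it. The unknown depth per library limits every statement on absence.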
